A study of Homo sapiens with 8 samples.

Results

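Nickel-washed-out cells (Ni-W) were compared with nickel-exposed cells (Ni-E), 2 RNA-Seq libraries each, which makes 4 of the 8 libraries of the series. Members were chosen by the group that the sample labels give, and all 25411 genes listed for each library entered the comparison. Every library came from BEAS-2B, a line of human bronchial epithelial cells. Ni-E cells were harvested after 6 weeks in medium with 100 µM NiCl2. Ni-W cells had the same 6 weeks at 100 µM and were then plated at low density in nickel-free medium, where a colony that began as a single cell was expanded and kept for more than 6 months without nickel. Ni-W is therefore 1 clone and Ni-E a mixed population, and Ni-W spent more than 6 further months in culture. The end of exposure, the choice of a single cell and the longer culture thus cannot be told apart. Untreated cells (UT, 2 libraries, 0 µM NiCl2) served here to say whether a level had moved during exposure, and a further washed-out population labelled HCl3 (2 libraries, the same 6 weeks at 100 µM and also grown from a single cell, with no time without nickel in the labels) was used for values beside those of Ni-W.

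Soluble nickel enters cells through metal transporters and occupies sites that normally hold iron or zinc. It inhibits the iron- and oxoglutarate-dependent dioxygenases, among them the prolyl hydroxylases that mark hypoxia-inducible factor (HIF) for degradation and several histone demethylases, and metal ions free the factor MTF1 to switch on metallothioneins. Cells under amino acid, endoplasmic reticulum or mitochondrial stress translate ATF4, which turns on genes of amino acid synthesis and uptake, while p53 responds to damage and holds the cell cycle through p21.

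The libraries held 34604295 and 33985930 reads assigned to genes in Ni-E and 45692298 and 31141364 in Ni-W, so that 3 reads, used as the floor for low genes, were at most 9.63e-06% of a library. Replicates differed by more than counting error, with a biological coefficient of variation of 0.0952 in Ni-E and 0.0696 in Ni-W. Of 12 bronchial epithelium markers only 3 reached a mean of 1 RPKM (a read count scaled by transcript length and library size) in Ni-E and 3 in Ni-W. KRT5, TP63, CDH1, SCGB1A1 and FOXJ1, which define basal, epithelial, club and ciliated cells, were under 1 RPKM in every Ni-E and Ni-W library, whereas KRT8 and KRT18 were abundant. EPCAM, another epithelial marker, also reached 1 RPKM in Ni-E and Ni-W but not in UT. KRT19 stayed under 1 RPKM but was higher in Ni-W, at 0.78 and 0.53 against 0.02 and 0 in Ni-E (DESeq2 adjusted p = 0.000551). The bronchial markers summed to 372 and 435 RPKM in Ni-E and to 466 and 495 in Ni-W. Of the 9 fibroblast markers likewise only 3 reached 1 RPKM in Ni-E and 3 in Ni-W. They summed to 325 and 501 RPKM in Ni-E and to 398 and 413 in Ni-W, and endothelial markers to at most 0.25. In RNA from whole cultures, fewer cells of a kind and less RNA per cell cannot be told apart.

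To ask how the transcriptome changed once nickel was removed, genes were called at an adjusted p under 0.05 (DESeq2) and a change of at least 1.5-fold. Of 15939 genes tested, 3277 were called (20.6%), with 1868 higher (11.7%) and 1409 lower (8.84%) in Ni-W. The higher genes changed more, with a median log2 fold change of 1.24 against 0.85 in size for the lower genes, and 1113 of the higher but 507 of the lower genes passed 2-fold. Both Ni-W libraries lay on the same side of both Ni-E libraries for 1868 of the higher and 1408 of the lower genes. The calls were made from these same libraries, so this separation nearly follows from them and adds no support. Without the first Ni-W library 1239 genes were higher, and without the second 1210. A further 5203 of 18442 genes (28.2%) were shown to differ by less than 1.5-fold by DESeq2's test against that bound.

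**Figure D1:**
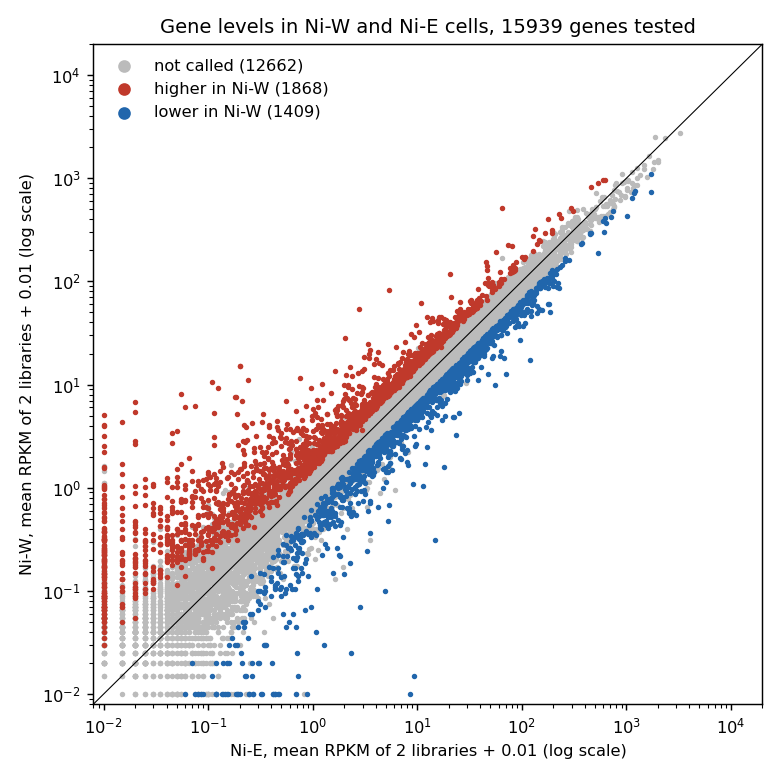
Mean RPKM of the 2 Ni-E libraries (x axis) and of the 2 Ni-W libraries (y axis) for each of the 15939 genes tested, both on log scales after adding 0.01. Red points are the 1868 genes higher and blue points the 1409 genes lower in Ni-W, and the column of red points at the left edge holds genes listed at 0 RPKM in Ni-E.

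Every called gene was then placed by its calls against UT. Nickel exposure itself changed 840 of 14401 genes (5.83%), 543 up (3.77%) and 297 down (2.06%), and Ni-W differed from UT in 2491 of 15419 (16.2%), 1725 up (11.2%) and 766 down (4.97%). Of these 840 genes, 455 (54.2%) were called in the opposite direction when nickel was removed, 66 (7.86%) moved further in the same direction and 319 (38%) were not called, of which 144 were called against UT in Ni-E alone and belong to no pattern. The comparisons of Ni-E with UT and of Ni-W with Ni-E share the Ni-E libraries, so these shares count calls and are not a test of reversal. Reversal was counted for 66.3% of the genes that nickel had lowered and for 47.5% of those it had raised, a difference that was not tested.

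Called genes were sorted into 7 patterns. Returned genes (197 raised and 141 lowered by nickel) moved back and were not called against UT. A missed call does not show that the UT level was reached. THBS1, for example, was returned but 1.46-fold above UT in Ni-W (DESeq2 adjusted p = 0.00104), short of the 1.5-fold threshold. Overshot genes (42 raised, 54 lowered) passed beyond the UT level to the other side. Partly returned genes (19 raised, 2 lowered) moved back but stayed called against UT. GATM, which the paper presents as transiently raised, was placed here. It measured 0.07 and 0.04 RPKM in UT, 1.17 and 1.37 in Ni-E and 0.50 and 0.59 in Ni-W, 9.11-fold above UT (DESeq2 adjusted p = 6.59e-05). Kept genes (143 raised, 32 lowered) were not called between Ni-W and Ni-E and stayed called against UT in the same direction, and extended genes (61 raised, 5 lowered) moved further from UT. New genes (1065 up, 529 down) had not been called during exposure and differed in Ni-W from both other groups. They made up 48.6% of the 3277 calls. For them a missed call during exposure does not show that the level had stayed. ADM, a new down gene, was already 1.48-fold lower in Ni-E than in UT (DESeq2 adjusted p = 1.62e-05), short of the 1.5-fold threshold. A remaining 545 genes higher and 617 lower in Ni-W were called in neither comparison with UT and are termed between. Leaving out 1 library moved many of these counts by more than 1.5 times. Returned raised genes numbered 74 and 98 without the first and the second Ni-E library and 100 without the second UT library, and returned lowered genes 76 without the first Ni-E and 68 without the second UT library. Kept raised genes fell to 58 without either Ni-E library, to 94 without the first Ni-W and to 61 without the second UT library. The new up genes numbered 575 and 614 without the first and the second Ni-W library. Overshot lowered genes numbered 12 without the first Ni-E library and 14 and 16 without the first and the second UT library, and overshot raised genes 24, 18 and 27 in that order. Partly returned raised genes numbered 4 and 5 without the first and the second Ni-W library and 10 without the first UT library.

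**Figure D2:**
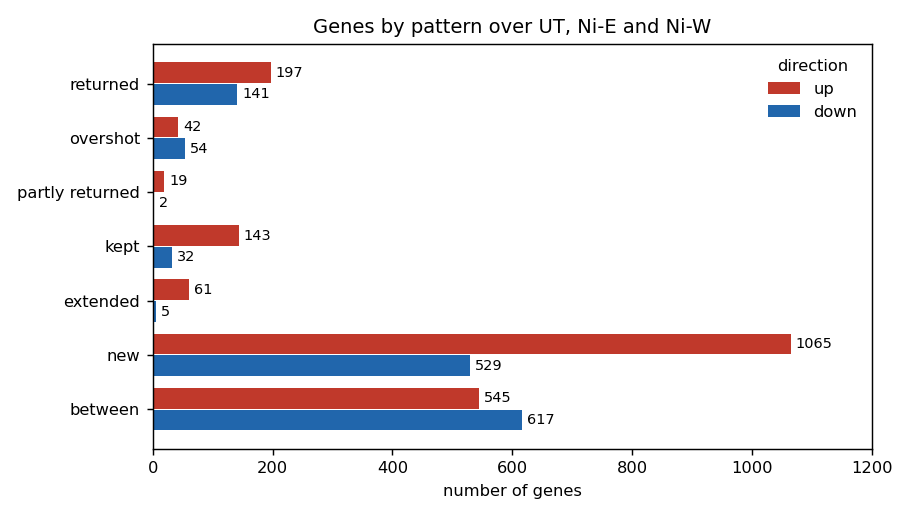
Number of genes (x axis) in each of the 7 patterns (y axis), with genes that went up in red and down in blue. For returned, overshot, partly returned, kept and extended genes the direction is that of Ni-E against UT, and for new and between genes that of Ni-W against Ni-E. New up, with 1065 genes, is the longest bar.

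Genes of ATF4 and the amino acid response were lower after nickel was removed. Of 26 genes on this list, all tested, 20 were lower and 0 higher in Ni-W, beside 8.84% and 11.7% of all genes tested. The median log2 fold change was -1.07 against 0.02 over all genes tested. During exposure 15 of the list had been called higher and 0 lower than UT, beside 3.77% and 2.06% of all genes tested. Of the 20, 8 overshot, namely ATF4 itself, TRIB3, CHAC1, ASNS, PSAT1, MTHFD2, SLC1A5 and CTH, and ended below the UT level.

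ASNS makes asparagine (chromosome 7, 97481429 to 97501854, minus strand, hg19) and measured 38.9 and 41.3 RPKM in UT, 102 and 136 in Ni-E and 16.8 and 17.8 in Ni-W. Both Ni-W libraries were thus below both UT libraries, which were below both Ni-E libraries. Its level in Ni-E was 6.92-fold that in Ni-W (log2 change, with its standard error, -2.79 ± 0.12, adjusted p = 3.91e-110). CHAC1, which degrades glutathione, stood at 8.36 and 7.24 RPKM in UT, 24.2 and 23.1 in Ni-E and 3.51 and 3.02 in Ni-W, 7.26-fold higher in Ni-E than in Ni-W (adjusted p = 3.36e-71). TRIB3, a pseudokinase that restrains ATF4, showed the same order of groups with 27.7 and 23.5, then 74.7 and 66.0, then 12.8 and 12.7 RPKM (log2 change -2.46 ± 0.11, adjusted p = 1.08e-108). TRIB3 lies in a 10 Mb window whose median over genes was -0.55 on the log2 scale. ATF4 itself went from 107 and 98.2 RPKM in UT to 177 and 188 in Ni-E and 62.9 and 58.7 in Ni-W (log2 change -1.57 ± 0.09, adjusted p = 2.05e-63).

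The serine and one-carbon genes moved with them. PSAT1, of serine synthesis, fell from 181 and 189 RPKM in Ni-E to 47.6 and 53.5 in Ni-W, and MTHFD2, of mitochondrial folate metabolism, from 177 and 181 to 61.0 and 59.4. PHGDH, PSPH and SHMT2, of the same route, returned to levels not called against UT, with log2 fold changes of -0.80, -0.77 and -1.19. Among aminoacyl-tRNA synthetases GARS and CARS returned, and WARS was lower by a log2 fold change of -0.97. Transporters were divided. SLC1A5, which imports glutamine, went from 217 and 213 RPKM in Ni-E to 87.4 and 88.4 in Ni-W, whereas SLC7A5 and SLC7A1 were not called (log2 fold changes -0.13 and -0.22). DDIT3, CEBPB, ATF5 and SLC38A2 were not called either. In HCl3 against UT, which uses no Ni-W or Ni-E library, 7 of the list were called lower and 0 higher. Among all genes tested there 3.75% were lower and 11.1% higher.

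Genes of this response carry the C/EBP-ATF response element, to which ATF4 binds. Its core TGATGNAA was searched on both strands in the 250 bases before the start of each gene (RefSeq, GRCh38.p14). It was found in 3 of 23 list members with an entry (13%) and in 870 of 27305 promoters searched (3.19%). The 3 were ASNS, CHAC1 and ATF3, all lower in Ni-W, and their sequences are given to show where the element lies. Capitals mark the match, which begins at -68 in ASNS (chr7:97872409-97872658, minus strand), at -209 on the reverse strand in CHAC1 (chr15:40953221-40953470, plus strand) and at -191 in ATF3 (chr1:212565157-212565406, plus strand), counted from the start site. A match describes letters and is not a measured binding site.
ASNS: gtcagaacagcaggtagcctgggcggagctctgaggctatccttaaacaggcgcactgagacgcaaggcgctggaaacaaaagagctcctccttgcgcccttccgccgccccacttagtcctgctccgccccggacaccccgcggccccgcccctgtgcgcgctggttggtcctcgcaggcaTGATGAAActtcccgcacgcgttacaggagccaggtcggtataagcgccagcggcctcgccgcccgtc
CHAC1: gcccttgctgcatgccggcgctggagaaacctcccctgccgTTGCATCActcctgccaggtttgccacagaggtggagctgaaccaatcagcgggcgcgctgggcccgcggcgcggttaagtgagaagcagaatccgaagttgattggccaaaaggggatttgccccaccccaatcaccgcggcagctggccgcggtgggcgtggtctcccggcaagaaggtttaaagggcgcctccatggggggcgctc
ATF3: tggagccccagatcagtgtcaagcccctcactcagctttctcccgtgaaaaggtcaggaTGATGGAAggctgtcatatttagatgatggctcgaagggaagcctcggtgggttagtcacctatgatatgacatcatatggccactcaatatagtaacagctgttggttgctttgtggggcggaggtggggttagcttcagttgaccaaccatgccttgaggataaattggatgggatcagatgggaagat

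**Figure D3:**
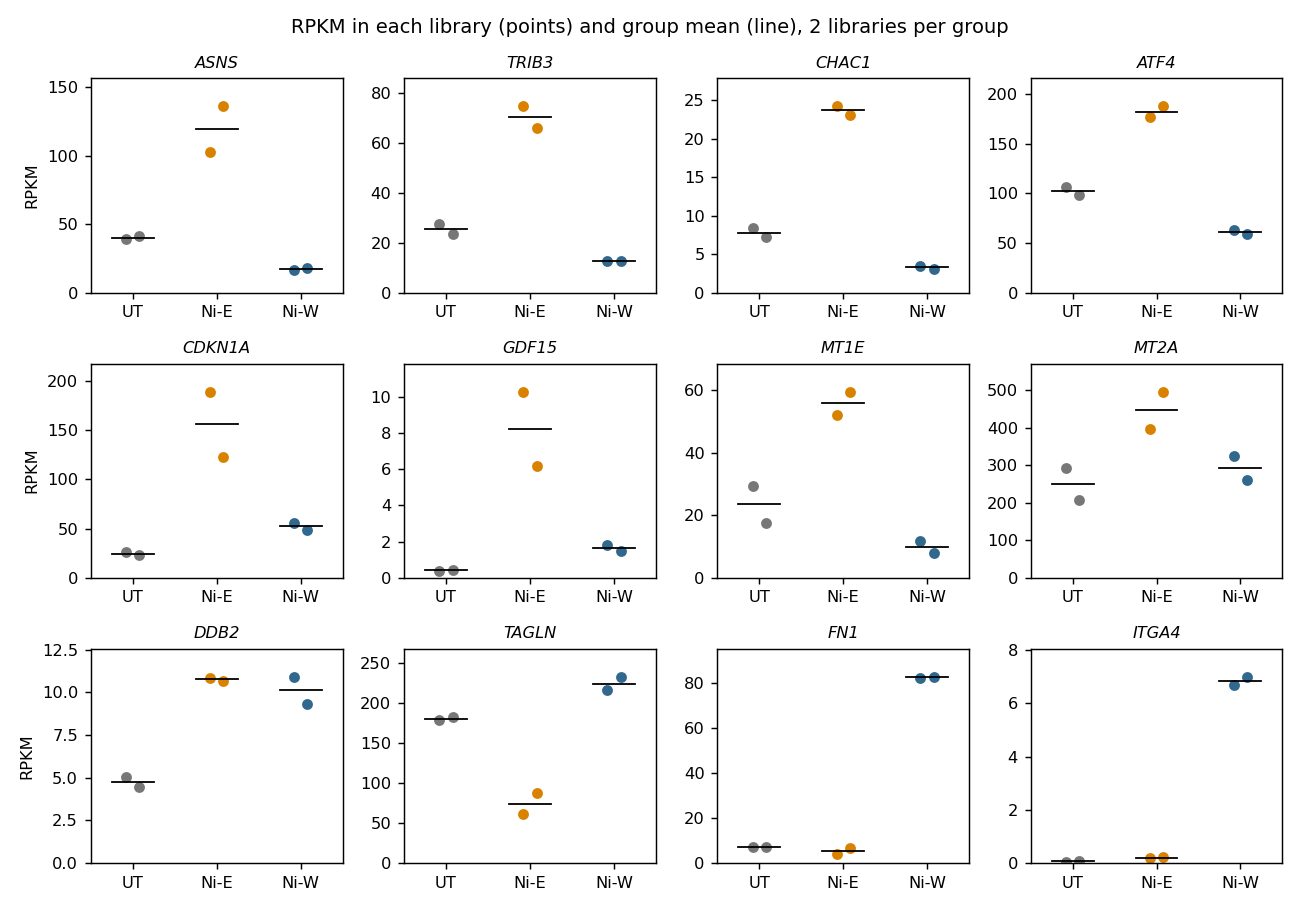
RPKM on a linear axis from 0 (y axis) in each UT, Ni-E and Ni-W library (points) for 12 genes, with the mean of the 2 libraries of each group as a line. ASNS, TRIB3, CHAC1, ATF4 and MT1E were highest in Ni-E and lowest in Ni-W, CDKN1A and GDF15 stayed above UT in Ni-W, DDB2 kept its Ni-E level, TAGLN was lowest in Ni-E, and FN1 and ITGA4 were high in Ni-W alone.

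Targets of p53 included genes that returned, genes that returned in part and genes that were kept. Of 20 list members tested, 10 were lower and 0 higher in Ni-W, beside 8.84% and 11.7% of all genes tested. Their median log2 fold change was -0.58. Against UT 12 had been called higher in Ni-E and 0 lower, beside 3.77% and 2.06%. CDKN1A, which encodes the cell cycle inhibitor p21, measured 25.9 and 22.9 RPKM in UT, 189 and 123 in Ni-E and 55.8 and 48.7 in Ni-W. No libraries of different groups overlapped. The log2 fold change was -1.58 ± 0.34 (adjusted p = 2.24e-05), and Ni-W remained 2.09-fold above UT (adjusted p = 1.16e-16). GDF15, a secreted stress cytokine, went from 0.39 and 0.42 RPKM in UT to 10.3 and 6.17 in Ni-E and 1.83 and 1.48 in Ni-W, and so ended 3.97-fold above UT. BTG2, an antiproliferative gene, also returned in part. DDB2, FAS and PHLDA3, of DNA repair, death signalling and Akt inhibition, were kept. DDB2 measured 5.05 and 4.45 RPKM in UT, 10.8 and 10.7 in Ni-E and 10.9 and 9.31 in Ni-W, and its difference between Ni-W and Ni-E was shown to be under 1.5-fold (adjusted p = 0.00238). MDM2, the ligase that degrades p53, FDXR, TP53I3 and SESN2 returned, with log2 fold changes between -1.35 and -0.68. In all, 6 members remained called higher in Ni-W than in UT and 0 lower, beside 11.2% and 4.97% of all genes tested.

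Metallothioneins bind zinc, copper and other metal ions, and SLC30A1 exports zinc. Of 12 genes on this list 6 had a test, and 3 were lower and 0 higher in Ni-W (8.84% and 11.7% of all genes tested). MT1E fell from 52.0 and 59.6 RPKM in Ni-E to 11.9 and 7.89 in Ni-W, under both UT libraries at 29.5 and 17.6 (log2 change -2.48 ± 0.19, adjusted p = 3.50e-37). MT2A, the most abundant, fell from 397 and 496 to 324 and 261 RPKM, against 292 and 207 in UT (log2 change -0.60 ± 0.12, adjusted p = 8.19e-06). SLC30A1 went from 15.6 and 13 to 7.52 and 10.2 RPKM (adjusted p = 0.000313). The call of MT2A was lost with a correction for GC content and length, without the second Ni-E or the second Ni-W library and after subtraction of the window median, and that of SLC30A1 without the first library of either group. Reads of the near-identical metallothionein copies may have been lost with the authors' removal of reads that align to several places.

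Metal response elements, the binding sites of MTF1, were searched as TGCACNC and TGCGCNC on both strands of the same 250 bases. TGCACNC was in 5 of the 5 list members with an entry and in 9.73% of all promoters, and TGCGCNC in 3 of the 5 and in 16.9%. Only 2 of the 5, MT2A and SLC30A1, were called lower in Ni-W, and MT1E had no entry. The promoter of MT2A is shown since it holds 7 matches, in capitals (chr16:56608334-56608583, plus strand, GRCh38.p14).
MT2A: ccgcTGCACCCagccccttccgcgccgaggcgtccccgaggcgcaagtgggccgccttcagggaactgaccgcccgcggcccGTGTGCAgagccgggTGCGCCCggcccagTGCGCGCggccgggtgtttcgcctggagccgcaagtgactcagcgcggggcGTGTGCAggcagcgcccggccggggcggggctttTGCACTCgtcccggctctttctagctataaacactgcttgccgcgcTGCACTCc

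Outside these lists, falls among returned genes with a mean normalised count of at least 100 were led by CECR2, a chromatin remodelling factor, and by SULF2, a heparan sulfate 6-O-endosulfatase. CECR2 measured 0.16 and 0.15 RPKM in UT, 0.83 and 0.89 in Ni-E and 0.19 and 0.20 in Ni-W (log2 change -2.16 ± 0.26, adjusted p = 2.51e-15). SULF2 went from 2.5 and 3.57 in Ni-E to 0.80 and 0.66 in Ni-W. SLC7A11, the cystine importer, HSPB8, a small heat shock protein, LAMA1, a laminin chain, and VEGFA also returned, with log2 fold changes of -1.14, -1.54, -1.58 and -0.77. Among overshot genes BCHE, which encodes butyrylcholinesterase (chromosome 3, 165490692 to 165555253, hg19), stood at 1.76 and 1.72 RPKM in UT, rose to 8.56 and 9.94 in Ni-E and, from 809 and 930 reads, came to 0 and 1 in Ni-W.

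Of the 141 returned genes that nickel had lowered, ABI3BP had the largest rise among those with a mean normalised count of at least 100, and the others named here were taken from the gene lists. Called lower in Ni-E than in UT were 4 of 20 collagens (2 higher), 1 of 28 matrix glycoproteins and laminins (5 higher) and 2 of 18 contractile genes (1 higher). Among all genes tested in that comparison 2.06% were lower and 3.77% higher. ABI3BP, a matrix protein, measured 3.39 and 3.08 RPKM in UT, 0.35 and 0.71 in Ni-E and 2.97 and 2.52 in Ni-W (log2 change 2.37 ± 0.27, adjusted p = 1.37e-16). TAGLN, the actin-binding protein transgelin, went from 179 and 182 RPKM in UT to 61.1 and 87.3 in Ni-E and 216 and 233 in Ni-W (log2 change 1.61 ± 0.13, adjusted p = 2.27e-32). THBS1, thrombospondin 1, went from 112 and 147 to 55.3 and 57.9 and then 169 and 219 RPKM. COL6A1, COL12A1, TGFB2, FSTL1, PDGFRB, EPHA4 and KMT2C, a histone methyltransferase of enhancers, returned in the same way, and the call of PDGFRB was lost without either Ni-W library. KMT2C was not called with a correction for GC content and length.

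Overshot lowered genes ended well above both UT libraries. DNAJA4, a co-chaperone, had 0.47 and 0.48 RPKM in UT, 0.09 and 0.14 in Ni-E and 8.70 and 9.91 in Ni-W (log2 change 6.51 ± 0.34, adjusted p = 8.77e-81). COL5A3, a chain of collagen V, had 0.43 and 0.48, then 0.02 and 0.05, then 2.66 and 2.75 RPKM (log2 change 6.33 ± 0.41, adjusted p = 1.36e-51). SMAD3, the transcription factor of TGF-beta signals, ID2, a target of BMP signals, GREM1, a BMP antagonist, and TPM1, tropomyosin 1, belonged here too. GREM1 and TPM1 only just passed the threshold during exposure, each 1.502-fold lower in Ni-E than in UT. SMAD3 measured 25.0 and 24.4 RPKM in UT, 15.3 and 16.1 in Ni-E and 41.3 and 43.5 in Ni-W. DNAJA4, SMAD3, GREM1 and TPM1 lie on chromosome 15 in windows with medians between 0.36 and 0.56.

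Of 175 kept genes, 58 (33.1%) were shown to differ by less than 1.5-fold between Ni-W and Ni-E, and for the others a missed call does not show that the level stayed. AMIGO2, a cell adhesion gene, measured 1.88 and 1.78 RPKM in UT, 6.67 and 6.56 in Ni-E and 5.67 and 5.66 in Ni-W (adjusted p = 0.0347 for a difference under 1.5-fold). LOXL1, a cross-linking enzyme of elastin, had 1.82 and 1.72, then 5.52 and 5.52, then 6.06 and 5.58 RPKM (adjusted p = 0.00541). SEMA6B, a transmembrane semaphorin, was 2.98-fold above UT in Ni-E and 2.56-fold in Ni-W. ZEB1, a repressor of epithelial genes, measured 0.99 and 1.25 RPKM in UT, 2.10 and 1.70 in Ni-E and 2.21 and 2.29 in Ni-W. Its difference between Ni-W and Ni-E was not shown to be under 1.5-fold (adjusted p = 0.111 by the same test). In the other direction PEG10, an imprinted gene derived from a retrotransposon, measured 38.5 and 45.6 RPKM in UT, 22.3 and 21.6 in Ni-E and 19.0 and 22.5 in Ni-W (adjusted p = 2.35e-05). ADAM12, a membrane-bound metalloprotease, had 6.43 and 6.74, then 3.21 and 2.52, then 3.19 and 3.48 RPKM. The count of 58 fell to 15 and 21 without the first and the second Ni-W library and to 24 and 19 without the first and the second Ni-E library.

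Extended genes were called against UT in Ni-E and lay further from UT in Ni-W. Some of the first calls were near the thresholds, with an adjusted p of 0.0466 (DESeq2) for ITGA4 and a 1.55-fold change for NDRG1. ITGA4, the alpha 4 integrin chain (chromosome 2, 182321619 to 182402468, plus strand, hg19), had 0.05 and 0.06 RPKM in UT, 0.19 and 0.21 in Ni-E and 6.70 and 7.01 in Ni-W. The step from Ni-E to Ni-W was 35.3-fold (log2 change 5.14 ± 0.20, adjusted p = 2.05e-137). CERKL overlaps ITGA4 on the opposite strand, and whether strand was used in counting was not stated. SFRP1, a secreted WNT antagonist, went from 0.05 and 0.04 to 0.28 and 0.35 and then 4.41 and 4.33 RPKM. NDRG1, a stress-responsive gene of the HIF list, went from 15.3 and 10.2 to 17.9 and 22.8 and then 128 and 109 RPKM (log2 change 2.55 ± 0.12, adjusted p = 7.57e-99). DSP, desmoplakin, had 0.23 and 0.34, then 2.19 and 1.93, then 5.49 and 5.72 RPKM. CDKN2B, the CDK inhibitor p15, was the reverse, with 19.3 and 20.4, then 8.72 and 13.3, then 6.38 and 6.06 RPKM, in a window with a median of -0.65. Its call between Ni-W and Ni-E was lost without the second Ni-E library and after subtraction of the window median. The 61 raised extended genes numbered 18 and 11 without the first and the second Ni-E library, 30 and 23 without the first and the second UT library and 40 without the first Ni-W library, and the 5 lowered ones 3 without either Ni-W library, 2 without the second Ni-E and 8 without the first UT library.

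Among new genes, 22 were switched on in Ni-W, meaning at most 3 reads in each Ni-E library and at least 1 RPKM in both Ni-W libraries. All 22 were called, which nearly follows from choosing them by the same counts. Of them 17 also had at most 3 reads in each UT library. SYK, a tyrosine kinase best known in blood cells (chromosome 9, 93589702 to 93660842, plus strand, hg19), had 0 and 0 reads in Ni-E and 860 and 535 in Ni-W, at least 207-fold higher against the floor. MGMT, which removes alkyl groups from guanine in DNA, had 0 and 0 reads in Ni-E and 366 and 195 in Ni-W, at least 82.0-fold higher. Both were at 0 RPKM in both UT libraries. ROBO1, the receptor of SLIT ligands, rose from 1 and 2 reads to 2052 and 1397. CADM3, an adhesion molecule of neurons, rose from 0 and 2 reads to 1280 and 804. PTPRN, a protein of secretory granules, CDH11, a mesenchymal cadherin, EYA2, FOXE1, GALC and TFPI2 were also in this group. Conversely, 3 genes (BCHE, PAGE5 and RFPL4A) had at most 3 reads in each Ni-W library and at least 1 RPKM in both Ni-E libraries.

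New losses from an expressed state were led by TLL1, a metalloprotease that cleaves chordin and procollagens, M1AP and SELENBP1, a selenium-binding protein with methanethiol oxidase activity. TLL1 measured 1.02 and 1.03 RPKM in UT, 1.22 and 1.34 in Ni-E and 0.01 and 0.03 in Ni-W (log2 change -6.66 ± 0.60, adjusted p = 2.88e-26). SELENBP1 measured 4.53 and 4.05, then 4.52 and 5.36, then 0.09 and 0.09 RPKM (log2 change -6.09 ± 0.51, adjusted p = 2.45e-31). M1AP lost its call without either Ni-E library. TIMP3, an inhibitor of matrix proteases, and ADAMTS1 were lower by log2 fold changes of -1.46 and -1.28. SELENBP1 was at 3.78 and 4.09 RPKM in the HCl3 libraries and TLL1 at 0 and 0.01.

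Many genes of the extracellular matrix were higher in Ni-W, where 11.7% of all genes tested were higher and 8.84% lower. Of 20 collagen genes tested, 12 were higher and 0 lower in Ni-W, with a median log2 fold change of 1.04, and of 28 matrix glycoproteins and laminins 14 were higher and 2 lower (LAMA1 and LUM), with a median of 0.72. FN1, fibronectin (chromosome 2, 216279384 to 216300791, minus strand, hg19), measured 6.97 and 6.99 RPKM in UT, 4.13 and 6.65 in Ni-E and 82.1 and 82.8 in Ni-W. It was thus low in both earlier states and 15.4-fold higher in Ni-W than in Ni-E (log2 change 3.95 ± 0.31, adjusted p = 5.21e-34). FBLN1, fibulin 1, rose from 2.87 and 3.97 to 20.4 and 19.2 RPKM (log2 change 2.59 ± 0.15, adjusted p = 1.04e-62). TGFBI and THBS2 rose by log2 fold changes of 1.48 and 1.49. COL8A1, a short-chain collagen, rose from 0.48 and 0.60 to 7.21 and 6.67 RPKM (adjusted p = 3.94e-65), and COL6A2, of the beaded filament collagen VI, from 5.89 and 6.67 to 24.6 and 22.0. COL5A1 and COL7A1 rose as well, from Ni-E libraries that differed by more than 2-fold from each other. COL1A1, the most abundant collagen gene, was not called, with 178 and 337 RPKM in Ni-E and 218 and 245 in Ni-W. COL1A2 was at most 0.25 RPKM in Ni-E and Ni-W, so that the paired chain of collagen I was nearly absent, and its call was lost without either Ni-W library.

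**Figure D4:**
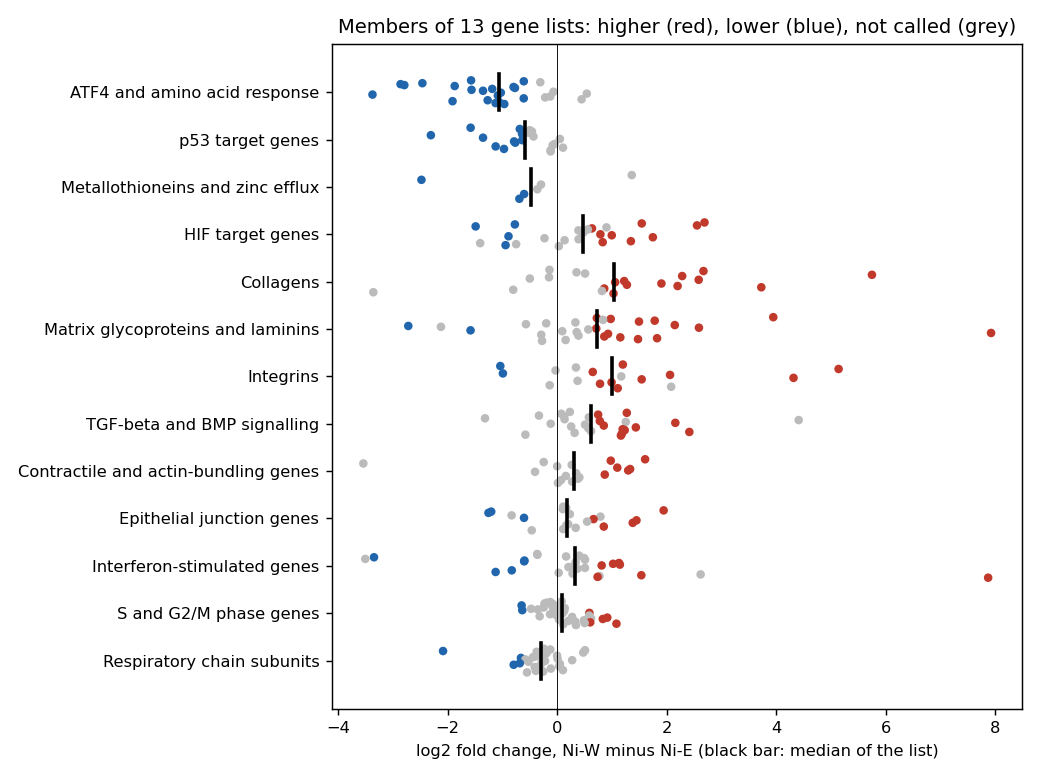
Log2 fold change of Ni-W minus Ni-E (x axis) for each tested member of 13 gene lists (y axis), with genes called higher in red, called lower in blue and not called in grey, and the list median as a black bar. The ATF4 list (median -1.07) lies mostly left of 0 and the collagen list (median 1.04) mostly right of it.

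Integrins, the receptors of the matrix, and genes of TGF-beta signalling were called higher more often than lower. The shares over all genes tested were 11.7% higher and 8.84% lower. Of 17 integrin chains tested, 9 were higher and 2 lower (ITGA7 and ITGA2), with a median log2 fold change of 0.99. ITGAV, the alpha V chain, rose from 14.2 and 14.2 to 40.7 and 42.0 RPKM (log2 change 1.54 ± 0.09, adjusted p = 6.78e-64). ITGA4 and ITGAV lie in the same 10 Mb window of chromosome 2, whose median was 0.72. ITGB1, the common beta chain, was not called, at 140 and 130 RPKM in Ni-E and 177 and 172 in Ni-W. Of 27 genes of TGF-beta and BMP signalling, 11 were higher, 0 lower and 16 not called, with a median of 0.62, and 1 was lower by edgeR, with TMM size factors or with the GC correction. The higher ones were the ligand TGFB2, the receptors TGFBR1 and BMPR2, the signal transducer SMAD3, the feedback inhibitors SMAD6, SMAD7 and SKIL, the target ID2, the antagonist GREM1, and FSTL1 and LTBP2. TGFB1 and SMAD2 were not called. During exposure 6 of the 27 had been called lower than UT and 1 higher, beside 2.06% and 3.77% of all genes tested. Of 18 contractile and actin-bundling genes 6 were higher and 0 lower. MYLK, the kinase of myosin light chain, rose from 14.4 and 16.9 to 38.5 and 40.6 RPKM.

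HIF target genes were divided between both directions. Of 25 tested, 9 were higher and 4 lower (11.7% and 8.84% of all genes tested), with a median log2 fold change of 0.47. Besides NDRG1, the higher ones included BHLHE40, a circadian repressor, which rose from 4.32 and 4.96 to 15.8 and 15.2 RPKM (log2 change 1.75 ± 0.13, adjusted p = 5.57e-39), LOX, the collagen cross-linking oxidase, from 8.26 and 8.52 to 21.5 and 20.8, and the dioxygenases KDM3A, PLOD2 and EGLN1. CA9, carbonic anhydrase 9, was at 0.62 and 1.58 RPKM in Ni-E and 8.95 and 5.12 in Ni-W, in a window with a median of -0.74. The lower ones were ADM, VEGFA, DDIT4 and STC2. ADM, adrenomedullin, fell from 144 and 135 RPKM in Ni-E to 50.5 and 48.6 in Ni-W and was also below UT at 191 and 207 (log2 change -1.49 ± 0.10, adjusted p = 4.69e-50). VEGFA, DDIT4 and STC2 had been called higher in Ni-E than in UT, with 13 and 12.7 RPKM of VEGFA against 5.02 and 5.21. In Ni-E against UT 6 of the list were called higher and 0 lower, beside 3.77% and 2.06% of all genes tested. In Ni-W against UT the counts were 11 and 1, beside 11.2% and 4.97%. In HCl3 against UT, 19 of the list were called higher and 1 lower, beside 11.1% and 3.75%. The call of EGLN1 was lost without the second Ni-W library, with a correction for GC content and length, and after subtraction of the window median. Of 22 glycolysis genes 3 were higher (13.6%) and 1 lower (4.55%), with a median of 0.05, or 0.30 with the correction for GC content and length. The lower one, SLC2A3, a glucose transporter, had 0.80 and 0.48 RPKM in Ni-E and 0.04 and 0.06 in Ni-W.

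Epithelial junction genes were mixed, with 5 of 20 higher and 3 lower and a median of 0.18. For this list and those that follow, the background over all genes tested was 11.7% higher and 8.84% lower. The desmosomal genes DSP, DSC2 and JUP were higher, while the tight junction genes CLDN1 and OCLN were lower. CLDN1 went from 83.0 and 89.8 RPKM in Ni-E to 35.4 and 36.8 in Ni-W, below UT at 62.5 and 66.8 (log2 change -1.25 ± 0.09, adjusted p = 6.65e-42). Of 30 interferon-stimulated genes 7 were higher and 5 lower, and of 16 HLA class I and antigen processing genes 5 were higher and 0 lower. With the correction for GC content and length the counts were 6 and 3 for the interferon list and 4 and 1 for the HLA list. Iron handling genes counted 5 higher and 1 lower of 16, with a median of -0.06, and 4 higher and 4 lower with the correction for GC content and length. SLC39A8, an importer of divalent metals, rose from 0.75 and 0.62 to 5.98 and 5.13 RPKM (log2 change 2.98 ± 0.22, adjusted p = 7.82e-38), after 0.36 and 0.23 in UT. SLC40A1, the iron exporter ferroportin, rose from 0.07 and 0.19 to 1.54 and 1.64.

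Further lists, not all of those examined, are given against the background of 11.7% higher and 8.84% lower. Axon guidance genes counted 9 higher and 7 lower of 28, and matrix proteases and their inhibitors 8 and 4 of 23. Cadherins and related adhesion genes counted 6 and 3 of 23, and NRF2 targets 3 and 2 of 23. Heat shock proteins counted 2 and 1 of 15, and dioxygenases 3 and 0 of 29. With a correction for GC content and length, axon guidance counted 6 and 7, heat shock 4 and 1, and dioxygenases 2 and 2. Of 36 genes of S and G2/M phase 5 were higher and 2 lower, with a median of 0.09, and of 32 histone and DNA methylation enzymes 3 were higher and 3 lower. Of 18 unfolded protein response chaperones 2 were higher and 2 lower, and of 23 cholesterol synthesis genes 2 were higher and 1 lower. With a correction for GC content and length the counts were 5 and 0 for S and G2/M phase, 1 and 2 for the methylation enzymes and 1 and 1 for the chaperones. Of 32 respiratory chain subunits 0 were higher and 4 lower, with a median of -0.29, and the calls of NDUFV2, UQCRFS1 and CYC1 were lost with that correction, which left 1 higher and 1 lower. In the WNT and Notch list 8 of 30 were higher and 2 lower. NOTCH3 rose from 0.82 and 0.79 to 3.81 and 3.71 RPKM, and WNT5B was lower by a log2 fold change of -1.54.

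Neighbouring genes often moved together in Ni-W. In 280 windows of 10 Mb, each with at least 10 genes of mean normalised count 50 or more, the median log2 fold change was at least 0.3 in 37 windows and at most -0.3 in 12. The windows were chosen by the same values as the calls, so the counts in them are a description. On chromosome 13 the median over 208 genes was 0.51, with 39.9% called higher and 0.962% lower, and on chromosome 15 the median over 396 genes was 0.46, with 35.6% higher, against 12.1% higher over all genes in windows. The 4 windows from the start of chromosome 9 to 40000000 (hg19) had medians between -0.74 and -0.65, and those at the start of chromosomes 20 and 17 had -0.55 and -0.50. Against UT the 4 windows of chromosome 9 had medians between -0.15 and 0.04 in Ni-E, between -0.72 and -0.62 in Ni-W and between -0.47 and -0.30 in HCl3. CDKN2A and CDKN2B lie in 1 of them. Among new down genes 137 (25.9%) lay in the 12 lower windows, which hold 5.12% of tested genes, and among new up genes 311 (29.2%) lay in the 37 higher windows, which hold 11.6%. After subtraction of the window median the count of new down genes was 309 in place of 529. DNA copy number was not measured here, and its part in these values was not tested.

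**Figure D5:**
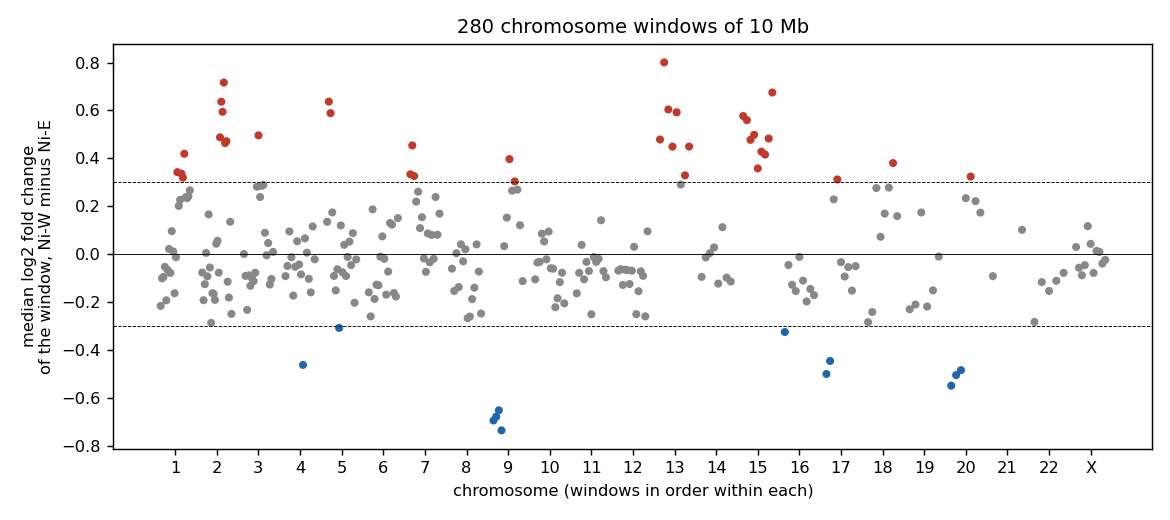
Median log2 fold change of Ni-W minus Ni-E (y axis) in each of 280 windows of 10 Mb, by chromosome (x axis), with windows in their order along each chromosome. Red windows are at 0.3 or above (37), blue ones at -0.3 or below (12), and dashed lines mark these values. Chromosomes 13 and 15 lie mostly above 0.3, and 4 windows of chromosome 9 lie between -0.74 and -0.65.

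The labels give the HCl3 libraries different experiment numbers, 3 and 4, and both Ni-E libraries number 2, so the spread within HCl3 may include that between experiments. No number is given for Ni-W or UT. Whether Ni-W against Ni-E, or Ni-E against UT, lies across experiments is therefore unknown. HCl3 against UT shares no library with Ni-W against Ni-E and gave 2333 called genes of 15714 (14.8%), 1744 higher (11.1%) and 589 lower (3.75%). Of the 1868 genes higher in Ni-W than in Ni-E, 933 (49.9%) were called higher in HCl3 than in UT and 8 lower. These 933 were 53.5% of the genes higher in HCl3. Of the 1409 lower genes, 311 (22.1%) were called lower in HCl3 and 53 higher, and the 311 were 52.8% of the genes lower in HCl3. Among named genes ITGA4 (4.68 and 4.19 RPKM), FN1 (117 and 121) and NDRG1 (155 and 155) were high in the HCl3 libraries as well. SYK was at 0.11 and 0.10 RPKM in HCl3 against 3.28 and 3.01 in Ni-W, DSC2 at 1.22 and 1.13 against 6.23 and 5.97, and SELENBP1 was not called against UT.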

How the data were processed

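RNA-Seq was measured in 8 libraries, 2 in each of 4 groups taken from the labels. The methods of the study call the 2 libraries of a group biological replicates, and the labels do not say whether they came from separate cultures, so p-values measure the spread between these libraries. The authors used STAR 2.4 and hg19, kept uniquely aligned reads only and counted them per RefSeq gene. The deposited files hold these counts and the authors' RPKM values, 1 library per file. No gene symbol was blank or duplicated. The counts as deposited were tested in R 4.3.3 with DESeq2 1.42.0 (Wald test, Benjamini-Hochberg adjustment), the 4 libraries of each comparison in 1 fit, after tests on simulated counts. RPKM values are shown as deposited and were not tested. With 2 libraries a group, the exact permutation test cannot reach 0.05. Depth was 26383920 to 45692298 reads per library, and the floor of 3 reads covers counting error only. Alternatives included edgeR 4.0.16, a replicate block, a correction for GC content and length, and each library left out. Promoters on chromosome 8 were left out of the motif search. The members and gene lists were chosen with earlier results of these data known. Genes named were drawn from the leaders of each pattern by fold change (mean normalised count of at least 100, libraries not overlapping). Others came from up to 3 called genes per list by adjusted p. Some of these leaders and list genes are not named in the text. The examples of the study were added, as were further list members chosen after their values were seen.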

Additional observations from a re-analysis of the deposited data

How the results depend on the processing

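The 3277 calls became 3779 with edgeR's quasi-likelihood test, 3279 with TMM size factors, 3230 without or with a mean count filter of 10, 3448 with all 8 libraries in one fit, 2935 with the correction for GC content and length, and 2584 after subtraction of 10 Mb window medians, with 2361 to 3230 of the same genes called in the same direction. The same replicate suffix does not pair the samples (r = -0.11 between same-numbered deviations). With a replicate block 2750 genes were called, with the block and the GC correction 2352 (the block alone gave 4 higher and 5 lower interferon-stimulated genes and 3 higher and 0 lower HLA genes), and with the pairing crossed, an alternative added after seeing the data, 2854. At a threshold of 2-fold 1620 were called, 1113 higher and 507 lower, and returned up and down held 80 and 57 genes, overshot 13 and 21, partly returned 11 and 1, kept down 11, extended 37 and 0, new down 154, between 274 and 249 and kept within 1.5-fold 9. With the replicate block returned up held 114, overshot up and down 27 and 20, partly returned 10 and 1, kept up 80, extended 27 and 3 and kept within 1.5-fold 26. With the GC correction and the replicate block returned held 83 and 71, overshot 22 and 23, partly returned 11 and 1, kept 72 and 20, extended up 26 and kept within 1.5-fold 26. With all 8 libraries in one fit overshot down held 92, kept up 216 and extended up 132. Partly returned down held 1 with the GC correction. After window subtraction partly returned down held 1, kept down 19, extended down 3, new down 309 and kept within 1.5-fold 32. The last count has no edgeR value, since its test belongs to DESeq2. The cause of these changes was not tested, apart from the thresholds themselves.

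Leaving out each library in turn, which leaves a lone sample assumed to vary like the others, gave 2277 to 3277 genes called, 1210 to 1868 higher, 1055 to 1409 lower, returned up 74 to 173 and down 68 to 141, overshot up 18 to 32 and down 12 to 42, partly returned up 4 to 17 and down 0 to 2, kept up 58 to 108 and down 22 to 46, extended up 11 to 44 and down 2 to 8, new up 575 to 1017 and down 394 to 528, between up 385 to 795 and down 479 to 792, and kept within 1.5-fold 15 to 66. Of the 128 genes picked as leaders, list genes or study examples, 20 lost their call after subtraction of the window median. Among the same 128, 3 kept genes changed sign, all near 0. LOXL1 was at -0.35 after window subtraction, PEG10 between -0.21 and 0.044 with a library left out (0.044 without the first Ni-W library), and ATXN1 between -0.23 and 0.031 (0.031 without the second Ni-E library) and at 0.16 after window subtraction. GC content followed the difference between Ni-W and Ni-E weakly (Spearman's rho -0.14 across 13690 genes), and also that between replicates (0.14 in Ni-E, -0.22 in Ni-W).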
